A study of Mus musculus with 2 samples.

Results

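To describe how the transcription factor CHOP and the stress feedback genes around it stood in 4T1 cells after treatment with astragalin (AS), 9 genes were taken by their symbols from the deposited RNA-sequencing table. They are Ddit3, the gene of CHOP, with Trib3, Chac1, Ppp1r15a, Ppp1r15b, Nupr1, Sesn2, Ddit4 and Tnfrsf10b, and all 9 were found among the 14197 genes of the table. 4 of them were higher in the AS-treated library by more than a log2 fold change of 1, namely Trib3, Ddit3, Ppp1r15a and Nupr1. Sesn2 was higher by less than that, Ppp1r15b and Chac1 differed little between the libraries, and Tnfrsf10b and Ddit4 had lower values in the AS-treated library.

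4T1 is a mouse mammary carcinoma line that spreads to bone, and AS is a plant flavonoid. The study asked which transcripts changed in these cells when AS restricted their growth. Wild-type 4T1 cells, so labelled, received AS or the vehicle, and 1 stranded mRNA library was made from each. The methods give 24 h of treatment for this experiment, and they name 20 μM AS as the dose used on the cells elsewhere in the study, whereas the labels give no dose. Each condition had 1 library, so the differences below have no replicate check, and an effect of AS cannot be told apart from any other difference between the cultures. No test and no p-value is therefore given.

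The values are RPKM, the reads on a gene per kilobase of its exons, scaled to the total reads of the library. The whole reads behind them could be recovered for all 14197 genes, and they summed to 44820055 in the AS-treated library and 50723555 in the vehicle library. Between 274 and 9391 reads lay behind each value of the 9 genes. Intervals are 95% Clopper-Pearson intervals of these reads, which cover counting error only and hold no spread between cultures. Reads without molecular identifiers are not independent molecules, so the intervals can be too narrow even for counting error. Fold changes are log2 ratios of AS over vehicle with 0.1 RPKM added to each value, so that the change of low genes is understated. The table as a whole moved little. The median log2 fold change of all genes was 0.07, and the middle 95% of genes lay between -0.54 and 0.67.

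The epithelial identity of the line was checked with 8 keratin, cadherin, claudin and adhesion genes, all of which were in the table and summed to 1823 RPKM with AS and 2327 RPKM with the vehicle. Krt18, a keratin and the most abundant of them, had 707 and 902 RPKM. The 4 keratins had lower values with AS, with log2 fold changes from -0.73 for Krt19 (136 and 226 RPKM) over -0.54 for Krt8 and -0.52 for Krt7 to -0.35 for Krt18. Of the others, Cldn4, a claudin, had 45.8 and 34.2 RPKM (0.42), Cdh1, or E-cadherin, had 0.17, and Epcam and Cldn7 had -0.09 and -0.06. The part of this shift in the differences below was not tested. Of 9 immune markers, 5 were listed, summing to 27.3 and 30.9 RPKM, almost all of it from Cd68, a lysosomal gene, at 24.0 and 28.1 RPKM. Lyz2, a lysozyme gene of myeloid cells, had 2.47 and 1.85 RPKM (0.40), and Ptprc, the leukocyte marker CD45, had 0.116 and 0.114 RPKM. Of 7 fibroblast markers, 4 were listed and summed to 6.08 and 5.67 RPKM, led by Pdgfra at 4.24 and 4.16 RPKM, and none of 5 endothelial markers was listed. In bulk RNA, fewer cells of a type and less RNA per cell cannot be told apart.

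CHOP is a transcription factor of the C/EBP family that cells make when the kinases of the integrated stress response phosphorylate the translation factor eIF2α and ATF4 protein is translated. CHOP, together with ATF4, switches on genes that feed back on the response. Ppp1r15a returns eIF2α to its unphosphorylated state, Trib3 restrains ATF4 and CHOP, Sesn2 and Ddit4 hold back the growth kinase complex mTORC1, Chac1 breaks down glutathione, Nupr1 is a chromatin-associated stress cofactor, and Tnfrsf10b is a receptor for the death ligand TRAIL.

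The stretches before the start sites of 5 of the genes are shown. All but that of Ddit3 hold a motif marked below, though that of Trib3 holds only the core TGACG. Ddit3 is shown because it is the gene the others are set beside. The motifs were searched as those of ATF4, CHOP and related factors, whose binding was not measured. The stretches are read 5′ to 3′ on the gene's strand from RefSeq (GRCm38.p6). Capitals mark the C/EBP-ATF element TGATGNAA, the cyclic AMP response element TGACGTCA and its core TGACG, each searched on both strands, so that an element on the opposite strand reads as its reverse complement. The Ddit3 stretch is chr10:127290543-127290773 on the plus strand, that of Trib3 is chr2:152344061-152344310 on the minus strand and that of Chac1 is chr2:119350992-119351228 on the plus strand. The shorter ones are chr7:45526269-45526329 for Ppp1r15a and chr7:126625562-126625591 for Nupr1, both on the minus strand.
Ddit3: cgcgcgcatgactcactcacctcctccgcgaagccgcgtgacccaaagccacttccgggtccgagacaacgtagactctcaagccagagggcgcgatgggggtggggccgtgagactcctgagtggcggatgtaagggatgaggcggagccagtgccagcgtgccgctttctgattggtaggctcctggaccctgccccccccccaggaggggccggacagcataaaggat
Trib3: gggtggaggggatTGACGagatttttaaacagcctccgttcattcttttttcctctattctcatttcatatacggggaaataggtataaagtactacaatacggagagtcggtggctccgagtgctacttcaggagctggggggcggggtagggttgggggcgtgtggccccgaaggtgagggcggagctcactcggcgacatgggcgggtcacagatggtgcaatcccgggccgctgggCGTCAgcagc
Chac1: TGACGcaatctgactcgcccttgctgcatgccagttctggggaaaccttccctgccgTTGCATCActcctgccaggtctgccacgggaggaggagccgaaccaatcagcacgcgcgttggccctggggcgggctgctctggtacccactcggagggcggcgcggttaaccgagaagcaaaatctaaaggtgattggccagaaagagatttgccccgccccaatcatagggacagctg
Ppp1r15a: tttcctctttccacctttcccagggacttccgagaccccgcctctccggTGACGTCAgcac
Nupr1: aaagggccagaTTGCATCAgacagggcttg

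In the windows of 250 bases before the start, the C/EBP-ATF element was found in 2 of the 7 genes with a RefSeq window, Chac1 at -193 to -186 and Nupr1 at -110 to -103 from the start. For Nupr1 the annotations give different starts, since the RefSeq start of this window lies 5391 bases inside the GENCODE span of the gene given below, and its element is therefore within that span. In the other 6 genes both starts are at most 64 bases apart. The same element was in 2.23% of the windows of genes in the table and in 3.45% of all RefSeq windows. Ppp1r15a held the full cyclic AMP response element at -12 to -5, which was in 3.1% of the windows of genes in the table and 1.55% of all windows. The core, which lies inside that element on both strands, was found in 3 genes, Ppp1r15a, Trib3 at -237 to -233 and -10 to -6, and Chac1 at -250 to -246, against 31.1% of the windows of genes in the table and 17.8% of all windows. The letters of the TATA box, TATAAA on the gene's strand, were found only in Trib3, at -166 to -161 (left in lower case), against 4.5% of the windows of genes in the table and 7.59% of all windows. The endoplasmic reticulum stress element (ERSE) was found in 0 of the 7, against 0.165% and 0.113%. Ddit3, Sesn2 and Ddit4 held none of these letters in their windows, and sequence further upstream and inexact matches were not searched. Of the 2 genes with the C/EBP-ATF element, Chac1 differed little between the libraries and Nupr1 passed the threshold. Whether any of these motifs bears on the changes was not tested. Of Ppp1r15b and Tnfrsf10b no sequence is shown.

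Ddit3 lies at chr10:127290774-127296288 on the plus strand (GENCODE M21, GRCm38, from which all gene positions are given). It had 101.0 RPKM in the AS-treated library from 7767 reads and 31.5 RPKM in the vehicle library from 2745 reads. This was 3.20-fold higher with AS, a log2 fold change of 1.68 (1.62 to 1.74). Ddit3 was already well expressed with the vehicle, above 87.7% of the genes of the table, and with AS it stood above 96.5% of them. By the size of the rise it was 16th of 14197 genes. Among the 4585 genes whose mean level was 10 RPKM or more it was 4th, behind Aldh3a1, an aldehyde dehydrogenase gene named here after its value was seen (80.1 and 15.6 RPKM, 2.36), Trib3 and Asns, the asparagine synthetase gene, and just ahead of Slc3a2, a subunit of amino acid exchangers, and Mthfd2, a mitochondrial folate enzyme. Asns had 48.3 and 14.3 RPKM (log2 fold change 1.75), Slc3a2 had 99.6 and 36.8 RPKM (1.43), and Mthfd2 had 31.5 and 11.7 RPKM (1.42). These genes are the nearest to Ddit3 by fold change over 2 libraries and are named for that alone. In the annotation, the Ddit3 locus overlaps the end of Mars1, the methionyl-tRNA synthetase gene on the opposite strand, by 68 bases, and Mars1 had 16.6 and 10.6 RPKM (0.64). A second, nested entry of the name Ddit3 overlaps it by 2925 bases on the same strand, and the table has 1 row of that name. Whether the counting used strand is not given in the sources used here.

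**Figure D1:**
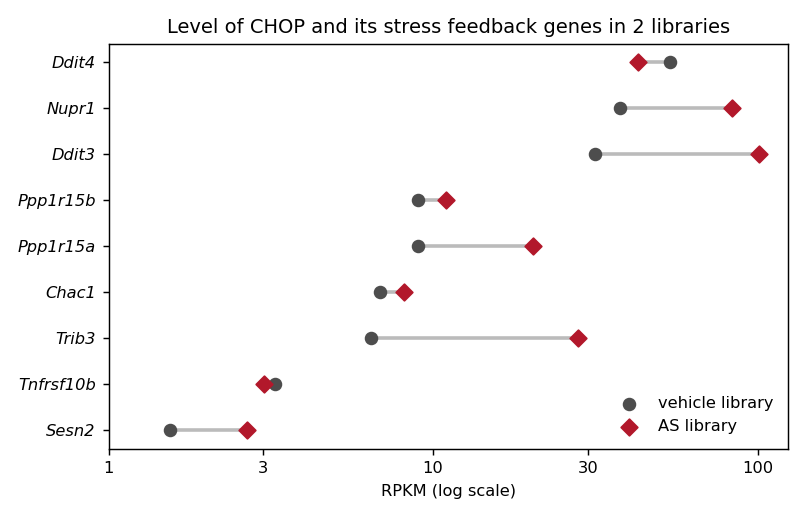
RPKM of each of the 9 genes in the AS-treated and the vehicle library, 1 point per library on a log axis. Ddit3 (101.0 against 31.5) and Trib3 (27.9 against 6.43) are widest apart, and Ddit4 (42.9 against 53.6) is the highest of the genes in the vehicle library.

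Trib3, a pseudokinase that binds ATF4 and CHOP and also AKT, had the largest fold change of the 9. It lies at chr2:152337422-152344032 on the minus strand and had 27.9 RPKM from 2665 reads with AS and 6.43 RPKM from 694 reads with the vehicle. This difference was 4.35-fold, a log2 fold change of 2.10 (2.00 to 2.24), the 5th largest rise in the table. In the vehicle library Trib3 was an ordinary gene in level, above 57.2% of genes, and with AS it was above 86.2% of them. Its rise exceeded that of Ddit3 by 0.43 on the log2 scale, and by 0.44 from the reads alone (0.30 to 0.58).

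The phosphatase subunits came as an unequal pair. Ppp1r15a, or GADD34, is the inducible partner that brings protein phosphatase 1 to eIF2α, and Ppp1r15b, or CReP, is the constitutive one. Ppp1r15a (chr7:45522916-45526268, minus strand) had 20.3 RPKM from 2684 reads with AS and 9.01 RPKM from 1345 reads with the vehicle, 2.26-fold higher with AS and a log2 fold change of 1.17 (1.08 to 1.27). Ppp1r15b (chr1:133131143-133139783, plus strand) had 11 RPKM from 2754 reads and 9.01 RPKM from 2562 reads, a log2 fold change of 0.28 (0.20 to 0.36). In the vehicle library both genes therefore stood at the same level, with a ratio of Ppp1r15a to Ppp1r15b of 1.0 (0.935 to 1.07), and in the AS-treated library the ratio was 1.86 (1.76 to 1.96). Ppp1r15a overlaps Tulp2 on the opposite strand by 717 bases, and Tulp2 is not among the genes of the table. An antisense gene that overlaps Ppp1r15b by 640 bases, Gm26616, had 71 and 66 reads only.

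Nupr1, also known as p8, had high levels in both libraries. The gene (chr7:126623249-126630861, minus strand) had 83.2 RPKM from 9391 reads with AS and 37.6 RPKM from 4810 reads with the vehicle. It was 2.21-fold higher with AS, a log2 fold change of 1.14 (1.09 to 1.19). From the reads alone, its change differed from that of Ppp1r15a by 0.03, within counting error (-0.08 to 0.14).

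Of the genes that act on mTORC1, Sesn2 and Ddit4 differed in opposite directions at the scaling of the RPKM, although relative to Gapdh both were higher (1.20 and 0.12 on the log2 scale). Sesn2, a leucine-binding protein that restrains the GATOR2 complex, lies at chr4:132492032-132510501 on the minus strand and was the lowest of the 9 genes in level, with 2.68 RPKM from 418 reads with AS and 1.55 RPKM from 274 reads with the vehicle. Its log2 fold change was 0.75, and the interval from the reads, 0.56 to 1.01, reached the threshold. Gm12981, which is not among the genes of the table, overlaps the span of Sesn2 by 6089 bases on the same strand. Ddit4, or REDD1, which acts through the TSC complex, lies at chr10:59949669-59951834 on the minus strand and had 42.9 RPKM from 3379 reads with AS and 53.6 RPKM from 4783 reads with the vehicle. It was 20.1% lower with AS, a log2 fold change of -0.32 (-0.39 to -0.26), and 7.66% of the genes in the table had a lower fold change. Ddit4 thus had the highest RPKM of the 9 genes in the vehicle library, and in the AS-treated library Ddit3 and Nupr1 had passed it.

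Chac1 and Tnfrsf10b were near the bulk of the table. Chac1, a cytosolic enzyme that cleaves glutathione (chr2:119351229-119354381, plus strand), had 8.16 RPKM from 600 reads with AS and 6.85 RPKM from 570 reads with the vehicle. Its log2 fold change was 0.25 (0.08 to 0.42). The difference between the changes of Chac1 and Ppp1r15b was 0.03 from the reads alone, within counting error (-0.15 to 0.21). Tnfrsf10b, or DR5 (chr14:69767472-69784411, plus strand), had 3.01 RPKM from 736 reads with AS and 3.26 RPKM from 904 reads with the vehicle. Its log2 fold change of -0.11 was within counting error (-0.26 to 0.02).

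Over the 9 genes, 4 were above a log2 fold change of 1, against 0.662% of all genes, and 0 were below -1, against 0.31%. In either direction, 0.972% of all genes passed. At a 1.5-fold difference, which is the other threshold named in the methods, Sesn2 was added, so that 5 of the genes were higher, against 3.56% of all genes, and 0 were lower, against 2.01%. The value of Sesn2 was below this threshold with 1 RPKM added (0.53) and relative to Tbp (0.45). The remaining 4 differed by less than 1.5-fold. The median of the 9 was 0.75, beside 0.07 over all genes. Since these genes were chosen with earlier results of the same libraries known, their count is a description and nothing is read from its distance to the share of all genes. The summed level of the 9 genes was 300.1 RPKM with AS and 158.9 RPKM with the vehicle. Ddit3 contributed 33.6% of that sum with AS and 19.8% with the vehicle, while Ddit4 contributed 14.3% and 33.7%.

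**Figure D2:**
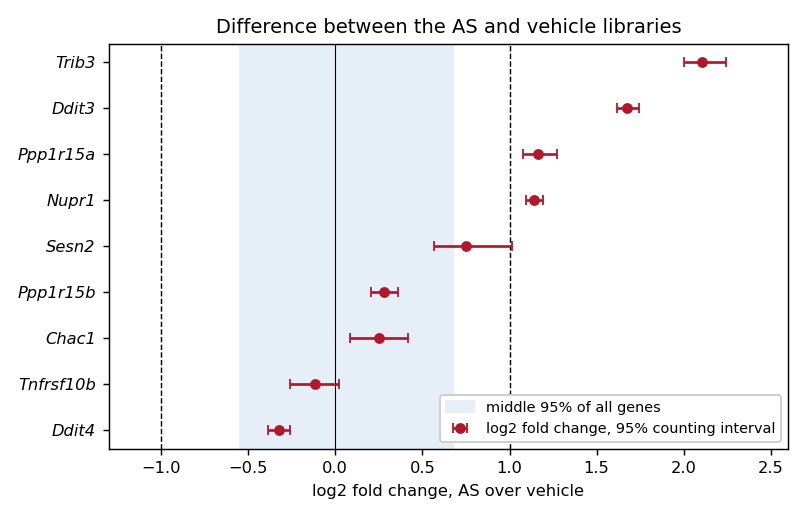
Log2 fold change of AS over vehicle for each of the 9 genes, with 95% Clopper-Pearson intervals of the recovered reads as bars, dashed lines at 1 and -1 and the middle 95% of all genes shaded. Trib3, Ddit3, Ppp1r15a and Nupr1 lie above 1 with their whole intervals, the interval of Sesn2 (0.56 to 1.01) reaches the line, and those of the other 4 lie below it.

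In the order of levels, most neighbours were further apart than counting error. With AS the order by RPKM from high to low was Ddit3, Nupr1, Ddit4, Trib3, Ppp1r15a, Ppp1r15b, Chac1, Tnfrsf10b and Sesn2. Only the interval of Tnfrsf10b over Sesn2 included 1 there, with a level ratio of 1.12 (0.994 to 1.27). With the vehicle the order was Ddit4, Nupr1, Ddit3, Ppp1r15b, Ppp1r15a, Chac1, Trib3, Tnfrsf10b and Sesn2, where Ppp1r15b and Ppp1r15a had equal levels and Chac1 and Trib3 differed by a ratio of 1.07 (0.953 to 1.19). Trib3 thus moved from the 7th to the 4th place. The intervals hold only the counting error of 1 library and leave out any bias between genes. The order also rests on the exon length that divides the reads, and for Nupr1 the annotations give different starts. By reads, Nupr1 was above Ddit3 in both libraries (9391 and 7767 with AS, 4810 and 2745 with the vehicle).

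**Figure D3:**
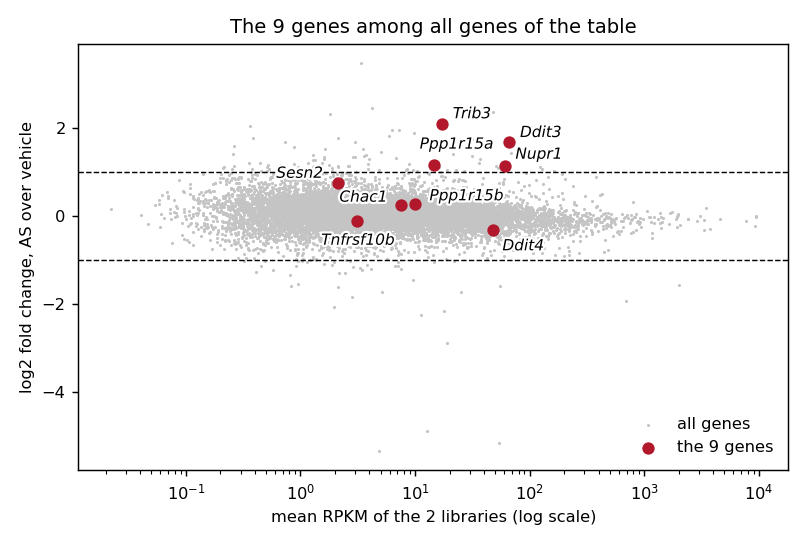
Log2 fold change of AS over vehicle against the mean RPKM of both libraries on a log axis, with all 14197 genes in grey and the 9 genes in red. Trib3, Ddit3, Ppp1r15a and Nupr1 lie above the dashed line at 1, and the others lie within the cloud, with Ddit4 (-0.32) in its lower part.

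The mRNA leaders of the 9 genes were also read, a property looked at after their values were seen. Ribosomes are known to reach the coding sequence of CHOP and GADD34 past short upstream reading frames when eIF2α is phosphorylated, which RNA levels do not measure. In the GENCODE M21 transcripts, Ppp1r15a had a leader of 764 bases with 7 upstream AUG codons, Ppp1r15b one of 604 bases with 3, and Ddit3 one of 186 bases with 2. Nupr1, Sesn2 and Tnfrsf10b had 1 each, and Trib3, Chac1 and Ddit4 had none. Such an AUG was found in 6 of the 9 genes and in 52.3% of 11027 genes of the table, so it was common in both, and genes with and without it were on either side of the threshold.

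The regulators above CHOP were next compared in a list of 12 kinases and factors, all in the table. 3 were above a log2 fold change of 1, against 0.662% of all genes, and 0 below -1, against 0.31%. The median of the list was 0.21. The 3 were Atf3, a stress-induced repressor and activator at 5.28 RPKM with AS and 2.44 RPKM with the vehicle (1.08), Ern1, the gene of the endoplasmic reticulum stress sensor IRE1, at 6.61 and 3.12 RPKM (1.06), and Atf5, a relative of ATF4, at 25.7 and 12.3 RPKM (1.05). All 3 were close to the threshold. Centred on the median of all genes, Ern1 had 0.995 and Atf5 0.989, so that Atf3 alone passed, and with TMM scaling Atf5 had 0.99 and 2 passed. With 1 RPKM added Atf5 alone passed. Atf4 itself had 123 and 75.5 RPKM (0.70), past a 1.5-fold difference only. Ddit3 stood at 0.820 of the level of Atf4 with AS (0.797 to 0.843) and at 0.417 of it with the vehicle (0.400 to 0.436). The transcripts of the eIF2α kinase PERK (Eif2ak3, 4.32 and 3.95 RPKM, 0.12) and of eIF2α itself (Eif2s1, 31.6 and 32.5 RPKM, -0.04) were close to no change, and Xbp1, the target of IRE1, had 20.4 and 22.1 RPKM (-0.11). Their phosphorylation and splicing are not seen in these values.

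Close relatives of the 9 genes were then set beside them. Of 14 listed paralogues, 10 were in the table, 0 were above 1 or below -1, against 0.972% of all genes, and the median was 0.14. A count of 0 in a list this short is what that share gives. Cebpg, the partner with which ATF4 and CHOP form heterodimers, was the highest, at 11.9 RPKM with AS and 6.56 RPKM with the vehicle (0.85), past a 1.5-fold difference, and Cebpb had 26.2 and 20.7 RPKM (0.34). Of the other Tribbles genes, Trib1 had 2.85 and 2.52 RPKM (0.17) and Trib2 had 3.60 and 2.98 RPKM (0.26). Trib3 therefore went from 2.55 times the level of Trib1 with the vehicle (2.30 to 2.83) to 9.81 times with AS (9.06 to 10.6). Sesn1, which p53 is known to induce, had 3.84 and 3.92 RPKM (-0.03) and Sesn3, a FOXO target, had 7.27 and 6.51 RPKM (0.16), so that Sesn2 remained the lowest of the sestrins in both libraries. Chac2, the constitutive relative of Chac1, had 25.5 and 23.6 RPKM (0.12), and Chac1 stood at 0.320 of its level with AS (0.290 to 0.352) and 0.291 with the vehicle (0.264 to 0.320). The decoy receptor genes Tnfrsf22, at 2.18 and 2.10 RPKM (0.05), and Tnfrsf23, at 0.686 and 0.864 RPKM (-0.30), were low in both libraries.

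**Figure D4:**
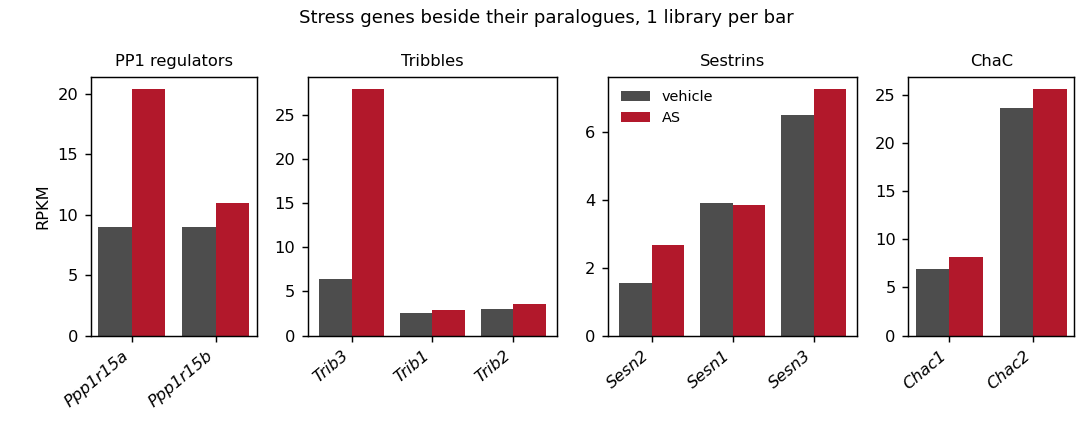
RPKM in the vehicle library (grey bars) and the AS-treated library (red bars) for the PP1 regulators, Tribbles, sestrin and ChaC families, 1 panel per family with its own axis from 0 and 1 library per bar. Trib3 (6.43 and 27.9) and Ppp1r15a (9.01 and 20.3) differ between the libraries far more than Trib1, Trib2 and Ppp1r15b do, and Chac1 is below Chac2 in both.

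Partners of the eIF2α phosphatases were measured for 18 of 19 listed genes, with a median of -0.03. 0 were above 1 or below -1, against 0.972% of all genes. The catalytic subunits that Ppp1r15a recruits were Ppp1ca, at 88.2 RPKM with AS and 105 RPKM with the vehicle (-0.26), Ppp1cb, at 26.0 and 25 RPKM (0.06), and Ppp1cc, at 23.1 and 25 RPKM (-0.12). The highest fold change of the list was that of Eif2s2, the beta subunit of eIF2, at 153 and 107 RPKM (0.52). The catalytic subunits were each more abundant than both regulatory subunits in both libraries.

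Downstream of Sesn2 and Ddit4, 25 of 26 listed genes of mTORC1 control were in the table. 0 of them passed the threshold in either direction, against 0.972% of all genes, and the median was 0.10. Deptor, an inhibitor within the mTOR complexes, was the highest at 3.80 RPKM with AS and 2.53 RPKM with the vehicle (0.57), and the GTPase gene Rraga was the lowest at 10.8 and 12.7 RPKM (-0.23). Of the TRAIL receptor pathway around Tnfrsf10b, 17 of 18 genes were in the table. Again 0 were past the threshold, against the same 0.972%, and the median was 0.04. The initiator caspase gene Casp8 had 52.1 and 52.4 RPKM (-0.01), Bid, which links it to mitochondria, had 10.2 and 8.18 RPKM (0.32), and the executioner Casp6 had 7.41 and 9.98 RPKM (-0.42). The ligand gene Tnfsf10 is not among the genes of the table.

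Around Chac1, the subunits of a cystine exchanger and Gclc were higher with AS by more than the threshold, and the other 8 genes of the list were not. Of 14 genes of the γ-glutamyl cycle, 11 were in the table, and their median was 0.22. 3 were above 1, against 0.662% of all genes, and 0 were below -1, against 0.31%. Slc7a11, the cystine importer of the exchanger xCT, had 6.31 RPKM from 3944 reads with AS and 0.478 RPKM from 338 reads with the vehicle, which gave a log2 fold change of 3.47. For this low gene the amount added matters, and the interval from the reads alone was 3.56 to 3.89. Its partner subunit Slc3a2 has been given above, and Gclc, the catalytic subunit of the enzyme that limits glutathione synthesis, had 12.3 and 5.33 RPKM (1.19). Its modifier subunit Gclm, at 5.23 and 4.49 RPKM (0.22), and glutathione synthetase, Gss, at 3.32 and 3.38 RPKM (-0.02), lay at or below the fold change of Chac1, whereas Slc1a5, a glutamine carrier, at 3.55 and 2.01 RPKM (0.79), and Gsr, glutathione reductase, at 69.4 and 55.9 RPKM (0.31), lay above it. These 4 were chosen after their values were seen. Oplah, which recycles 5-oxoproline, the product of γ-glutamyl cleavage, had 1.11 and 1.27 RPKM (-0.18).

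Other genes reported as targets of CHOP or ATF4 numbered 20, of which 16 were in the table, with a median of 0.35. 2 were above 1, against 0.662% of all genes, and 0 were below -1, against 0.31%. The 2 were Asns and Stc2, a secreted glycoprotein gene at 2.32 RPKM with AS and 0.856 RPKM with the vehicle (1.34), of which Stc2 did not pass with 1 RPKM added. Ero1a, the endoplasmic reticulum oxidase that CHOP is known to induce, had 32.9 and 39.9 RPKM (-0.28), the lowest of this list among genes whose mean was 1 RPKM or more. Of the members of the BCL-2 family, chosen here after their values were seen, Bcl2l11, or BIM, had a log2 fold change of 0.28, Bbc3, or PUMA, 0.21, Bcl2 0.41, Mcl1 -0.0014, Bax -0.11 and Bak1 -0.06. Gadd45a, also chosen after its value was seen, had 73.2 and 44.3 RPKM (0.72).

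Sesn2, Ddit4 and Tnfrsf10b are also known as targets of p53, so 18 p53 target genes were listed, of which 17 were in the table. 1 was above 1, against 0.662% of all genes, 0 were below -1, against 0.31%, and the median was 0.11. The gene above 1 was Trp53inp1, a stress-induced autophagy and cell death gene, at 1.90 RPKM with AS and 0.666 RPKM with the vehicle (1.38), and it did not pass with 1 RPKM added. The canonical targets Cdkn1a, or p21, at 0.508 and 0.559 RPKM (-0.12), and Mdm2, at 15.4 and 12.8 RPKM (0.27), differed by less than 1.5-fold. The activity of p53 in these cells was not measured, and these values are not read as a measure of it.

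All 16 listed chaperones of the ATF6 and XBP1 branches of the unfolded protein response were in the table. 0 of them were past the threshold in either direction, against 0.972% of all genes, and their median was -0.07. Hspa5, or BiP, the most used marker of those branches, had 214 RPKM with AS and 230 RPKM with the vehicle (-0.10). Calr, or calreticulin, was the lowest at 263 and 359 RPKM (-0.45), and Dnajb9 was the highest at 4.13 and 2.93 RPKM (0.48). Across all 10 lists, 149 genes were in the table, of which 9 were above 1, against 0.662% of all genes, and 0 were below -1, against 0.31%. The 9 were Atf3, Ern1, Atf5, Slc7a11, Slc3a2, Gclc, Asns, Stc2 and Trp53inp1. For each list with no gene past the threshold, the share of all genes gives less than 1 gene, so nothing is read from the difference between lists.

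**Figure D5:**
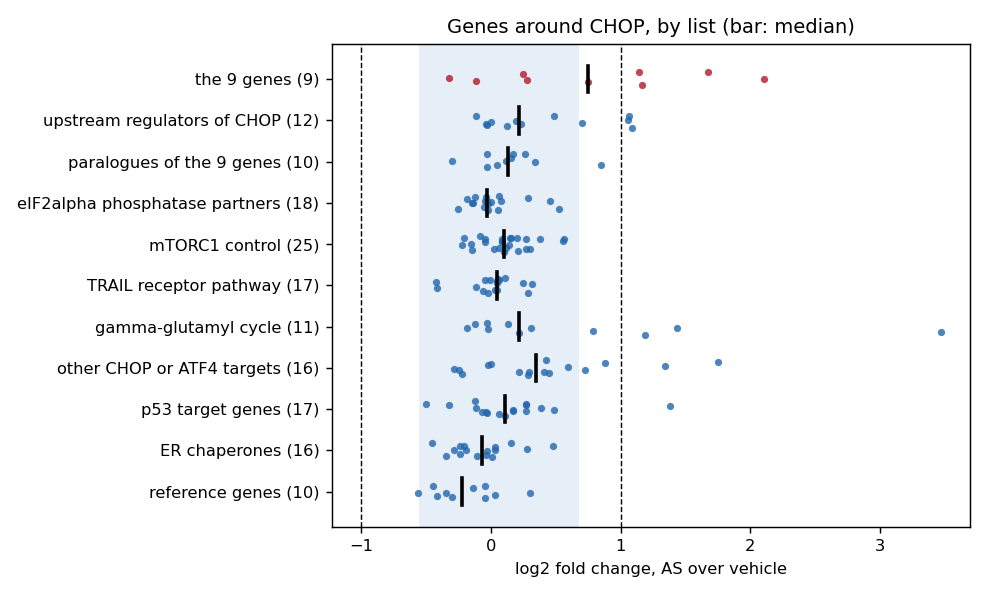
Log2 fold change of AS over vehicle of every gene in the table from the 9 genes and the lists, 1 point per gene and 1 row per list, with the median of each row as a black bar, dashed lines at 1 and -1 and the middle 95% of all genes shaded. The 9 genes have a median of 0.75, and Slc7a11 (3.47) is the highest point among the lists.

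The choice of a reference gene changes how large these differences appear. Of 10 common reference genes 0 passed the threshold, but their median was -0.22, with Pgk1 lowest at 191 RPKM with AS and 282 RPKM with the vehicle (-0.56) and Tbp highest at 4.88 and 3.94 RPKM (0.30). Gapdh, the internal control of the study's PCR, had a log2 fold change of -0.45. Relative to Gapdh the rise of Ddit3 would be 2.12 on the log2 scale, and relative to Tbp it would be 1.38. For Ddit4 the direction depended on this choice, being 0.12 relative to Gapdh and -0.62 relative to Tbp, and so it did for Tnfrsf10b (0.33 and -0.41), Ppp1r15b (0.73 and -0.02) and Chac1 (0.70 and -0.05). Trib3, Ddit3, Ppp1r15a, Nupr1 and Sesn2 were higher relative to either gene, but relative to Tbp the values of Ppp1r15a (0.87) and Nupr1 (0.84) were no longer above 1. Gapdh was taken because the methods name it.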

How the data were processed

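RNA from AS-treated and vehicle-treated 4T1 cells was measured in 1 library each. The submitters' processing notes name fastp 0.23.4, STAR 2.5.3a, featureCounts and the build GRCh38, a human build, although the gene symbols are those of the mouse. The annotation and the strand setting of the counting are not given in the sources used here. The table deposited by the authors lists 14197 genes. It gives RPKM per library, a unit found from the values and scaled by the authors to library totals, and a mean log2 CPM over both libraries. The columns of the authors' own comparison (fold change, p-value and FDR) were not used.

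Combining these columns gave whole reads for all 14197 genes (100%), and implied library sizes of 44909683 and 50820728. Of 13502 genes with a single entry in GENCODE M21 (GRCm38), 94.2% had the implied exon length. The implied lengths of all 9 genes described, Ddit3 with its 2 nested entries included, also equalled those there, so positions were taken from it. The reads served only for the intervals, the alternatives and the differences between gene changes that are given with an interval. Fold changes were computed with 0.1 RPKM added, and genes beyond a log2 fold change of 1 were counted, with no filter. No gene was listed at 0. Motifs were searched in 250 bases before each RefSeq start (GRCm38.p6).

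The 9 genes, the 10 lists and the 4 marker lists were chosen with earlier results of these data known. Named by rule are all 9 genes, up to 4 rises and 4 falls beyond the threshold per list (otherwise the largest of each with a mean of at least 1 RPKM), direct partners and paralogues, and the genes next to Ddit3 in fold change. Other cell type markers were named after their values were seen. A planned comparison of proteins was not made. The steps were tested on simulated data and run in Python 3.11.15 with numpy 2.4.6, pandas 2.3.3 and scipy 1.17.1.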

Additional observations from a re-analysis of the deposited data

How the results depend on the processing

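All alternatives were planned. The fits on reads changed the added amount, to 0.5 reads, and all but the fit with library totals also changed the scaling. The other alternatives changed 1 choice each. Trib3, Ddit3, Ppp1r15a and Nupr1 stayed above a log2 fold change of 1 under all of them, and none of the 9 genes changed direction. Values relative to 1 reference gene, which are not among these alternatives, did change some of them, as given above for Gapdh and Tbp. Scaling of the reads by upper quartile, TMM or median-of-ratios and centring on the median of all genes gave, in this order, 1.60, 1.61, 1.61 and 1.61 for Ddit3, 1.06, 1.08, 1.07 and 1.08 for Nupr1, and -0.40, -0.39, -0.39 and -0.39 for Ddit4. With 1 RPKM added, Trib3 had 1.96, and Sesn2, the median of the 9 genes, had 0.53 and was no longer past 1.5-fold. The count of all genes beyond the threshold, 138 here, was 227 with 0 RPKM added, 54 with 1 RPKM added and 791 at a 1.5-fold threshold. On reads it was 225 with library totals, the scaling of the RPKM itself, and 210 with TMM, 211 with median-of-ratios and 214 with upper-quartile scaling. At the same added amount these scalings therefore gave fewer genes than library totals, as centring of the RPKM fold changes did with 132, and the higher counts came with the smaller added amount. Centring gave 75 higher and 57 lower genes, in place of 94 and 44. Among the lists, the regulators of CHOP had 1 gene beyond the threshold with 1 RPKM added or with centring, in place of 3, and 2 with TMM, median-of-ratios or upper-quartile scaling. The other CHOP or ATF4 targets had 3 with 0 RPKM added or with library totals of the reads, in place of 2. They had 1 with 1 RPKM added and 5 at the 1.5-fold threshold. The gene that joined with 0 RPKM added was Vldlr, named after its value was seen (0.765 RPKM with AS and 0.369 RPKM with the vehicle, 2.07-fold). The p53 targets had 0 with 1 RPKM added, in place of 1, and the paralogues had 1 at the 1.5-fold threshold, in place of 0. TMM lowered every log2 fold change by 0.07 against library totals. The cause of the other differences was not tested.

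No paired analysis was possible because each condition has 1 library, and for the same reason no replicate was left out. The spread between cultures was not measured.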
